A study of Mus musculus with 4 samples.

Results

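Pf4 Itga2b megakaryocyte-primed progenitors are described here among sorted mouse LSK bone marrow cells. The cells were chosen by their own measured counts: a cell entered the gate with 3 or more UMIs (counted transcript molecules) of Pf4, 1 or more of Itga2b, and 0 of Klf1, Ms4a2 and Cebpe. The gate took 1639 of 34320 kept cells (4.78%), where kept means 500 or more genes, 1000 or more UMIs and no more than 10% of UMIs from mitochondrial genes. LSK cells lack lineage markers and carry Sca-1 and Kit, and they include the stem cells and multipotent progenitors of the marrow. The study asked how activation of Piezo1, a mechanically gated cation channel, changes these cells. Wild-type mice received Yoda1, a Piezo1 agonist, intraperitoneally for 2 weeks, and the control mice, also wild type, received vehicle. Each group had 2 single-cell RNA-seq libraries, called Yoda1 1 and Yoda1 2, and control 1 and control 2. Whether a library is 1 mouse or a pool is not stated in the labels, which also give no age, sex or strain, so each p-value below reflects the spread of the libraries and that spread may be technical.

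Megakaryocytes shed platelets into the blood, and their progenitors branch from stem cells and from early megakaryocyte-erythroid cells. Commitment is driven by GATA, ETS and RUNX transcription factors, and genes of platelet adhesion receptors and granules follow. Pf4 encodes the granule chemokine platelet factor 4, and Itga2b encodes CD41, the alpha chain of the platelet fibrinogen receptor. The excluded genes belong to neighbouring fates: Klf1 to red cells, Ms4a2 to mast cells and basophils, and Cebpe to granulocytes.

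The gate held 496, 224, 411 and 508 cells in Yoda1 1, Yoda1 2, control 1 and control 2, with 7708429, 3586608, 6160138 and 6997991 UMIs in the same order. Their median depth per cell was 12066 to 14036.5 UMIs, against 7233.5 to 11065 UMIs for the other kept cells, and it was the higher of both values in every library. Pairs of libraries shared 8 to 26 kept barcodes, and 0 among gate cells. Yoda1 2 stood apart from the other libraries. In it 51.9% of kept cells carried Hlf, a stem cell transcription factor, without Pf4 or the excluded genes, against 19.2% in Yoda1 1, 13.5% in control 1 and 18.7% in control 2. Where a value rests on it, the value without it is given as well.

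The label was checked against megakaryocyte markers. Vwf, which makes platelets adhere to vessel walls, was at 164 and 165 CPM (UMIs of the gene per 1000000 UMIs, summed over the gate cells of a library) in Yoda1 1 and Yoda1 2, and at 167 and 178 CPM in control 1 and control 2. Vwf was at 3.46 to 7.54 CPM in the other kept cells. Cavin2, which binds caveolar membranes, averaged 343 CPM in gate cells and 9.13 CPM in the other kept cells. Treml1, a receptor of platelet granule membranes, averaged 187 CPM in gate cells and 5.95 CPM in the other kept cells. Leaving out Pf4 and Itga2b, 15 of 16 megakaryocyte markers were above the other kept cells in all 4 libraries, and the other was Tubb1, the platelet tubulin, which averaged 0.294 CPM in the gate. All 6 granulocyte-monocyte markers, 5 of 6 lymphoid markers and, without the excluded genes Ms4a2 and Klf1, 6 of 6 markers of mast cells, basophils and eosinophils and 7 of 9 erythroid markers were below the other kept cells in all 4 libraries. Of 6 stem cell markers 3 were below and 1 was above in all 4. Of 4 endothelial markers 2 were below and 1 was above in all 4, and 1 had no UMI in the gate. The 4 endothelial markers summed to 15.1 and 22 CPM in the gate cells of Yoda1 1 and Yoda1 2 and to 14.9 and 19.2 CPM in those of control 1 and control 2, against 6.78, 27.6, 6.75 and 11.0 CPM in the other kept cells of the same libraries. The gate and these markers use the same cells, so the counts are a description with no test, and the part of other cell types was not tested.

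The LSK sort was made on surface protein, and the genes of both sorted proteins were low in the gate as transcripts. Ly6a, which encodes Sca-1, was at 73.9 and 26.8 CPM in Yoda1 1 and Yoda1 2 and at 37.8 and 22.4 CPM in control 1 and control 2. It averaged 40.2 CPM in the gate, against 305 CPM in cells with Hlf and no Pf4, called Hlf-positive cells below. Kit averaged 74.5 CPM in the gate and 163 CPM in Hlf-positive cells. UMIs of both genes were found in the gate cells of every library.

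The 20 leading genes, ranked by the ratio of gate cells to all other kept cells, included Pf4, Cavin2, Treml1, Rab27b, Itga2b, Vwf, Serpine2, Cd9, Ehd3, Rap1b, F2rl2, Timp3, Slc14a1, Gp5, Tuba8, Plek, Itgb3, Rbpms2 and Clec1b. The gate was drawn on the same cells, so these ratios describe it and carry no test. Of the 20 genes, 17 are members of the 4 megakaryocyte lists used below. Without Pf4 and Itga2b, which drew the gate, 15 of 18 are members. The ratios of the 20 genes ran from 8.41 for Plek, a substrate of protein kinase C in platelets, to 49.9 for Pf4. The lowest ratio of any of the 20 in any library was 6.52.

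**Figure D1:**
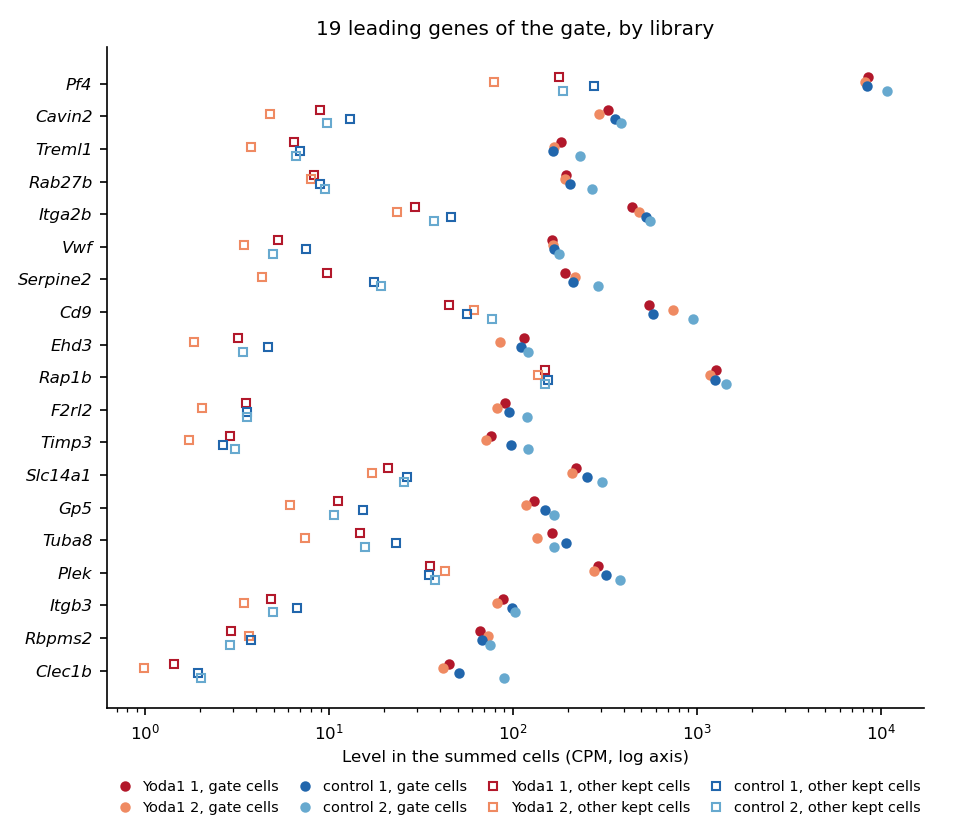
Level of 19 of the 20 leading genes in CPM (log axis) in cells of the Pf4 Itga2b gate (filled circles) and in all other kept cells (open squares), with 1 point per library. For each of these genes the 4 gate values lie above the 4 values of the other cells, and Pf4 lies between 8201 and 10756 CPM in the gate.

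Promoter sequence is shown for the genes that name these cells. RefSeq windows (GRCm38.p6), running from 250 bases before to 50 bases after the start, were found for 15 of the 20 leading genes and searched on both strands for a GATA-type motif, AGATAA, and an ETS-type motif, GGAAGT, which did not overlap in any window shown. The GATA-type motif was in 4 of the 15 windows and in 11.2% of 32851 promoter windows of that length. The ETS-type motif was in 5 of 15 and in 23.8% of all windows. Both were in 2 of 15, those of Pf4 and Gp5, and in 2.43% of all windows. A match describes letters and is not a measured binding site. The windows of Pf4 (chr5:90772185-90772484, plus strand) and Itga2b (chr11:102469834-102470133, minus strand) are given because these genes define the gate, and that of Gp5 (chr16:30310732-30311031, minus strand) because it held the most matches. Each is written 5′ to 3′ on the strand of its gene, and capitals mark the motifs, in reverse complement where the match is on the opposite strand.
Pf4: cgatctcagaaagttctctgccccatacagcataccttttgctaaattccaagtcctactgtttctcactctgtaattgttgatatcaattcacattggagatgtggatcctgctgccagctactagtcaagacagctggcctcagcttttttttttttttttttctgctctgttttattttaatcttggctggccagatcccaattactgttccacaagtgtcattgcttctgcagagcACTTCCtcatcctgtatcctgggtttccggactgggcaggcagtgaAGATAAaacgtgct
Itga2b: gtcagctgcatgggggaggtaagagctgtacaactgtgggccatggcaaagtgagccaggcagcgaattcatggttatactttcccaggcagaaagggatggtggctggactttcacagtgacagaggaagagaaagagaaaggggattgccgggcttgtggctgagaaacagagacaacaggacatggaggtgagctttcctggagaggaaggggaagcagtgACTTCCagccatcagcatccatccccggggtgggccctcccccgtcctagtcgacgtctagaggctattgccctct
Gp5: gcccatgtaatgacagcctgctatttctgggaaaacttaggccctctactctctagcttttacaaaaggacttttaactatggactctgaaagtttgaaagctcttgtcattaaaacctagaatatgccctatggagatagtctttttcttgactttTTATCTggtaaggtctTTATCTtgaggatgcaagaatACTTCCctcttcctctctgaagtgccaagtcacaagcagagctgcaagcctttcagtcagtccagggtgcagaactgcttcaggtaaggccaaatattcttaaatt
In Pf4 the ETS-type match began 10 bases before the start and the GATA-type match was 36 bases after it. In Itga2b an ETS-type match began 26 bases before the start. In Gp5 the GATA-type matches began 93 and 77 bases and the ETS-type match 56 bases before it. By the GENCODE M21 annotation of GRCm38 the window of Itga2b, placed by its RefSeq start, lies almost wholly inside the gene, its ETS-type match included. In that annotation Pf4 spans 90772435 to 90773383 on chromosome 5, Itga2b spans 102453297 to 102470122 on chromosome 11, and Gp5 spans 30307685 to 30310779 on chromosome 16.

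The transcription factors set the gate cells beside their neighbours, which again is a description. Fli1, the ETS factor of megakaryocytes, averaged 246 CPM in the gate. It averaged 82.0 CPM in early megakaryocyte-erythroid cells (Gata2 and Apoe without Pf4), 77.0 CPM in Hlf-positive cells and 23.5 CPM in erythroid cells (Klf1 and Car1 without Pf4). Gata1, which both lineages need, averaged 66.4 CPM in the gate, which lay between the 141 CPM of erythroid cells and the 6.37 CPM of Hlf-positive cells. Gata2, a factor of early progenitors, averaged 176 CPM in the gate, below the 222 CPM of the early cells that were chosen for it.

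Among receptors, Itgb3, the partner chain of Itga2b, averaged 92.7 CPM in the gate and at most 4.95 CPM in the early, Hlf-positive and erythroid cells. Clec1b, the podoplanin receptor CLEC-2, averaged 56.7 CPM in the gate and at most 1.02 CPM in them. Gp6, the collagen receptor of platelets, was low at 1.56 and 2.51 CPM in Yoda1 1 and Yoda1 2 and at 2.11 and 5.86 CPM in control 1 and control 2. Itgb3 and Clec1b were thus above all 3 sets in the gate, while Gp6 stayed under 6 CPM in every library.

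Piezo1, the target of Yoda1, was detected but not high. It was at 13.6 and 12.3 CPM in the gate cells of Yoda1 1 and Yoda1 2, and at 16.1 and 13 CPM in those of control 1 and control 2. Its level in the gate was 0.628 to 0.837 of that in the other kept cells of the same library, and it averaged 32.2 CPM in erythroid cells. Trpc6, a calcium-permeable channel, averaged 54.2 CPM in the gate and 3.21 CPM in the other kept cells.

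Pf4 itself ran from the threshold of 3 to 1528 UMIs per cell, so the gate was described along it. Cells with 3 to 5, 6 to 15, 16 to 50 and over 50 Pf4 UMIs made up 14.8%, 12.4%, 19.4% and 53.4% of the gate. Their depth differed: the median UMIs per cell, averaged over libraries, were 9865, 8598, 10280 and 16898 in that order. The levels below are CPM. The ranges were cut on raw Pf4 UMIs, so they also depend on depth, which CPM does not remove. The part of depth in the values below was not tested. Just inside the threshold, the 118 cells with 3 Pf4 UMIs had 13.5 CPM of Vwf and 173 CPM of Gata2. Just outside it, the 318 cells with 2 Pf4 UMIs that met the other conditions had 7.48 CPM of Vwf and 143 CPM of Gata2. These values were pooled over libraries, and in control 1 Vwf was at 5.44 CPM inside and 7.21 CPM outside. Mpo, a granulocyte-monocyte gene, was at 1339 CPM inside and 1343 CPM outside, pooled likewise. Gata2 was at 147 and 189 CPM inside in Yoda1 1 and Yoda1 2 and at 166 and 207 CPM in control 1 and control 2. Outside, Gata2 was at 132, 136, 126 and 182 CPM in the same order, lower in every library. Vwf was higher inside in every library but control 1.

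Receptor and granule genes were higher in cells with more Pf4. Leaving out Pf4 and Itga2b, 59 of the 80 other members of the 4 megakaryocyte lists were higher with over 50 than with 3 to 5 Pf4 UMIs in all 4 libraries, and 7 were lower in all 4. Vwf averaged 16.1, 35.2, 84.8 and 231 CPM from the lowest to the highest range. Timp3, an inhibitor of metalloproteinases, averaged 8.09, 15.4, 28.1 and 129 CPM. Ppbp, the precursor of platelet granule chemokines, averaged 1.82, 3.26, 4.86 and 41.5 CPM, so most of it was in the highest range. The transcription factors were divided: 8 of 16 were higher in the highest than in the lowest range in all 4 libraries and 5 were lower in all 4, and Gata1 averaged 55.7, 78.3, 64.7 and 67.8 CPM.

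Several lists of other programmes had lower sums in cells with more Pf4. From the lowest to the highest range the stem cell list averaged 1163, 985, 797 and 609 CPM, and the granulocyte-monocyte list 2878, 1769, 1262 and 1030 CPM. Other lists did not follow: the MHC class II list averaged 214, 78.8, 82.6 and 233 CPM, and the endothelial list 33.0, 35.7, 42.2 and 56.7 CPM. Apoe, a lipid carrier of early megakaryocyte-erythroid cells, averaged 1073, 1027, 743 and 267 CPM over the ranges. Hlf averaged 120, 83.8, 62.8 and 36.8 CPM. Of the genes of the sorted proteins, Kit averaged 150, 120, 103 and 48 CPM and Ly6a 99, 70, 48 and 24 CPM. Mpo, the myeloperoxidase of granulocyte-monocyte progenitors, averaged 859, 513, 304 and 301 CPM. Mpo differed between libraries in every range, and in the whole gate it was at 486 and 70.0 CPM in Yoda1 1 and Yoda1 2 and at 700 and 260 CPM in control 1 and control 2.

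Free RNA can give UMIs in cells that do not express a gene, so shares of cells were set against B-lineage cells (Ebf1 with 2 or more UMIs), with each cell thinned to 3000 UMIs. Pooled over libraries, Mpo was found in 43.3% of gate cells and in 37.3% of B-lineage cells. By library its share of gate cells was 48.3% and 15.3% in Yoda1 1 and Yoda1 2 and 60.9% and 36.1% in control 1 and control 2. The thinned B-lineage cells numbered 29 and 128 in Yoda1 1 and Yoda1 2 and 25 and 132 in control 1 and control 2, so both pooled shares weigh the libraries differently, and the part of free RNA in the gate value was not tested. Cavin2, pooled likewise, was found in 54.8% of gate cells and 0.955% of B-lineage cells. Before thinning, the median depth of the B-lineage cells was 9840 to 13703 UMIs per library, against 12066 to 14036.5 UMIs in the gate.

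**Figure D2:**
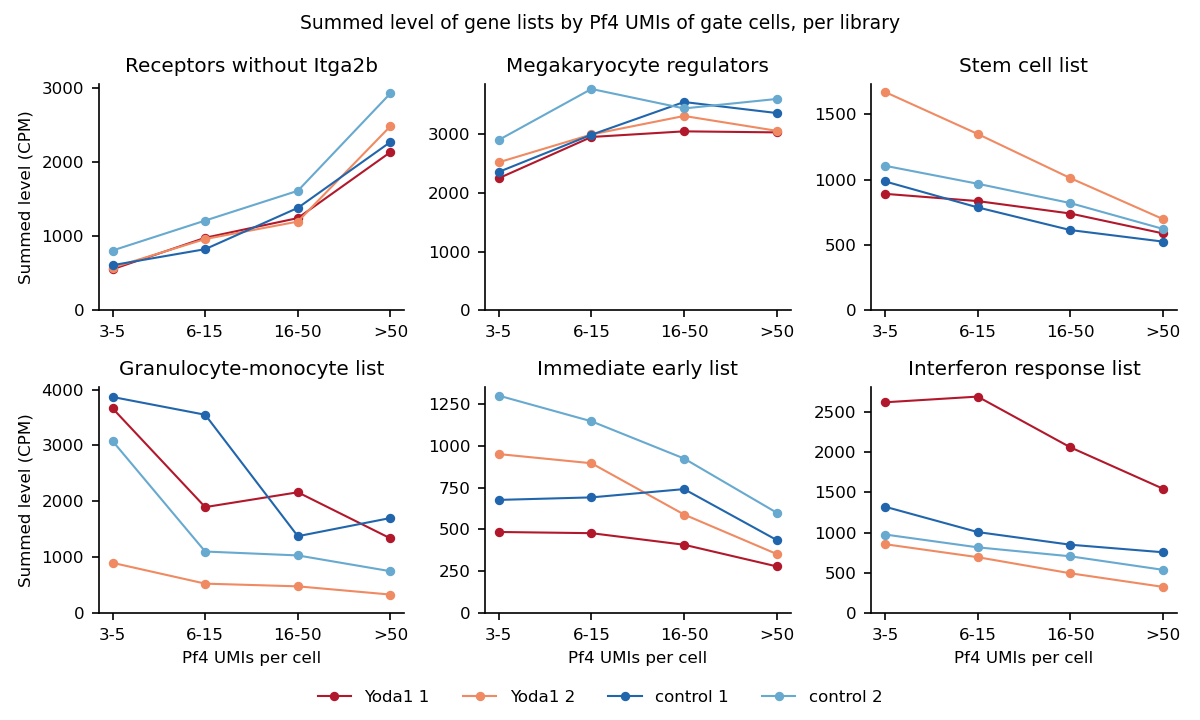
Summed level of 6 gene lists in CPM (y axes start at 0) in gate cells by Pf4 UMIs per cell, with 1 line per library. From the lowest to the highest range the receptor list without Itga2b averages 638, 995, 1359 and 2453 CPM and the stem cell list 1163, 985, 797 and 609 CPM, and Yoda1 1 is the highest library for the interferon response list in every range.

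Gate cells were compared between Yoda1 and control first by number. They made up 5.44% of kept cells in Yoda1 1 (95% exact binomial interval 4.98 to 5.92) and 2.30% in Yoda1 2 (2.01 to 2.61), against 5.39% in control 1 (4.90 to 5.92) and 6.49% in control 2 (5.96 to 7.06). Yoda1 2 was low, and Yoda1 1 lay between both controls. The mean was 3.87% ± 2.22 with Yoda1 and 5.94% ± 0.778 in controls (SD, n = 2 each), a difference of -2.08 percentage points with p = 0.667 in an exact two-sided permutation test. With 2 libraries a group, that exact test cannot go below p = 0.333. The difference was -0.507 points without Yoda1 2 and -3.65 points without Yoda1 1. With the gate applied after thinning to 3000 UMIs, shares were 3.65% and 1.41% with Yoda1 and 4.34% and 4.8% in controls. Both Yoda1 libraries were then below both controls (p = 0.333, exact permutation test). That also held with Pf4 of at least 5, with the highest doublet scores removed and without the exclusions. With Pf4 of at least 2 the groups overlapped.

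Counted against erythroid cells of the same library, Yoda1 2 was not low. There were 1.01 and 2.29 gate cells per erythroid cell in Yoda1 1 and Yoda1 2, and 0.592 and 1.39 in control 1 and control 2, which overlapped (p = 0.667, exact permutation test). The difference of means was 0.66, and 0.024 without Yoda1 2. The erythroid cells numbered 489 and 98 in Yoda1 1 and Yoda1 2 and 694 and 366 in control 1 and control 2, so that Yoda1 2 held few cells of both lineages.

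**Figure D3:**
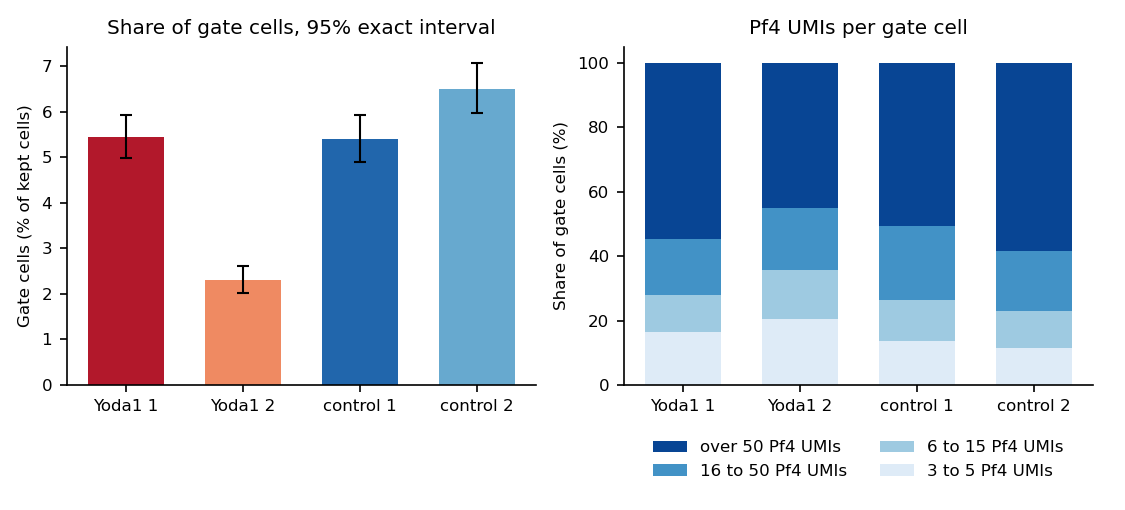
Left, gate cells as a percentage of kept cells in each library, with 95% exact binomial intervals that cover counting error only. Right, gate cells of each library split by Pf4 UMIs per cell: cells with over 50 make up 54.6% and 45.1% in Yoda1 1 and Yoda1 2 and 50.6% and 58.3% in control 1 and control 2.

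Cycling and stem cell transcripts were compared after thinning to 3000 UMIs, which left out 3 to 9 gate cells per library. At least 2 UMIs of 20 G2/M genes were found in 77.9% and 67% of gate cells in Yoda1 1 and Yoda1 2, and in 71.6% and 59.9% in control 1 and control 2 (p = 0.667, exact permutation test). The groups overlapped. Unthinned, the shares were 91.3% and 89.7% with Yoda1 and 88.1% and 83.3% in controls. In every library the thinned share in the gate was above that of the other kept cells, at 64.4% and 39.9% in Yoda1 1 and Yoda1 2 and 65.1% and 50.6% in control 1 and control 2. In erythroid cells, measured the same way, the share was 74.3% and 68.4% in Yoda1 1 and Yoda1 2 and 68.3% and 56.9% in control 1 and control 2.

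Hlf was found in 11.0% and 26.0% of thinned gate cells in Yoda1 1 and Yoda1 2, and in 8.46% and 10.0% in control 1 and control 2. Both Yoda1 values were above both controls, with p = 0.333 in an exact permutation test, the smallest p it can give. The difference of means was 9.26 percentage points, and 1.71 points without Yoda1 2. The share was 5.73% in B-lineage cells and 3.97% in erythroid cells. In the other kept cells it was 21.5% and 48.7% in Yoda1 1 and Yoda1 2 and 17.1% and 21.1% in control 1 and control 2, so Yoda1 2 was the highest library there too. Unthinned, Hlf was found in 31.9% and 50.9% of gate cells with Yoda1 and in 31.6% and 31.9% in controls. Yoda1 1 (31.85%) was then below control 2 (31.89%), with p = 0.667 in an exact permutation test. The 194 thinned gate cells with Hlf had a median of 27.5 Pf4 UMIs before thinning, against 65 in the 1415 without it.

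Across genes, no transcript in the gate cells passed the threshold between Yoda1 and control. Counts were summed per library and tested with edgeR's quasi-likelihood test, and 0 of 12199 genes (0.0%) had an adjusted p under 0.05. An unadjusted p under 0.05 was found for 282 genes, 110 higher and 172 lower. These 282 genes were a share under 0.05 of the genes tested. On the same sums DESeq2 called 1 gene, H2-Ab1, and limma-voom called 0. Both Yoda1 libraries were above both controls for 12.3% of the genes tested and below both for 16.1%. These shares are the background for the counts that follow.

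The genes that name the cells are given first. Pf4 was at 8500 and 8201 CPM in Yoda1 1 and Yoda1 2 and at 8432 and 10756 CPM in control 1 and control 2, where control 2 was above the other 3 libraries. Its log2 fold change was -0.19, but -0.02 without control 2 and 0.02 when Klf1, Ms4a2 and Cebpe were not used for exclusion. Itga2b was at 443 and 484 CPM with Yoda1 and at 527 and 555 CPM in controls, a log2 fold change of -0.21. Both genes chose the cells, so these values are a description with no test. The other 18 leading genes all had a log2 fold change below 0, from -0.68 for Clec1b to -0.02 for Rbpms2, an RNA-binding protein. In both Yoda1 libraries 12 of the 18 were below both controls, beside 16.1% of all genes tested. Genes of 1 library share its cells and scaling and are not independent of each other, and the Vwf value of -0.06 changed sign under 4 of the alternatives.

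Small differences below 0 ran through the 4 megakaryocyte lists. Without Pf4 and Itga2b, 74 of 80 members were tested, of which 67 had a log2 fold change below 0. Both Yoda1 libraries were below both controls for 35 of them (47.3%), beside 16.1% of all genes tested, and above both for 1, beside 12.3%. The median log2 fold change was -0.17 for 16 transcription factors, -0.24 for 20 receptors, -0.21 for 18 granule and secreted genes and -0.11 for 20 cytoskeleton and signalling genes, and -0.0038 over all genes tested. The receptors without Itga2b summed to 1742 and 1853 CPM in Yoda1 1 and Yoda1 2, against 1795 and 2462 CPM in control 1 and control 2, with control 2 the highest library. Without control 2 the medians of the 4 lists, in the order given, were -0.16, -0.08, -0.08 and -0.09, and 53 of the 74 members were below 0. With Klf1, Ms4a2 and Cebpe not used for exclusion, 42 of the 74 members were below 0 and 6 (8.11%) were below both controls, beside 13.4% of all genes tested in that setting.

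None of these members passed the test (adjusted p = 0.999 for each of those named, edgeR), and those of smallest unadjusted p came from every list. Timp3 was at 76.2 and 71.7 CPM with Yoda1 and at 97.4 and 121 CPM in controls (log2 fold change -0.55, SE 0.138). Gata2 was at 155 and 152 CPM with Yoda1 and at 188 and 208 CPM in controls (-0.36, SE 0.114). The 4 values of each gene did not overlap between groups. Gfi1b, a repressor that megakaryocytes and red cells need, was at 74.2 and 78.3 CPM with Yoda1 and at 89.4 and 109 CPM in controls (-0.37, SE 0.132). Gp5, a subunit of the receptor for von Willebrand factor, was at 131 and 118 CPM with Yoda1 and at 149 and 166 CPM in controls (-0.32, SE 0.123). Clec1b was at 45 and 41.5 CPM with Yoda1 and at 51.0 and 89.5 CPM in controls (-0.68, SE 0.226). Control 2 carried much of the last difference, which was -0.23 without it. Zyx, an adaptor of focal adhesions, was at 256 and 221 CPM with Yoda1 and at 303 and 311 CPM in controls. The member above both controls was Clu, the chaperone clusterin, at 46.8 and 46.0 CPM with Yoda1 and at 34.1 and 41.4 CPM in controls.

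**Figure D4:**
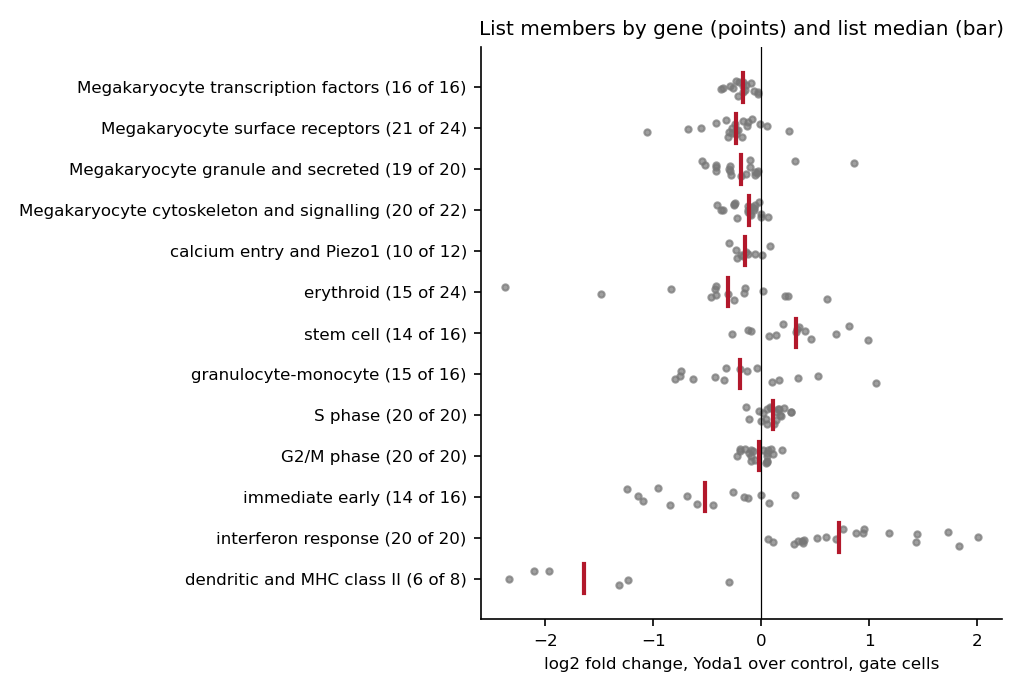
log2 fold change in gate cells, Yoda1 over control, of each tested list member (grey points) with the list median (red bar), with members tested and members listed in brackets. With Pf4 and Itga2b among the points, the 4 megakaryocyte lists have medians between -0.23 and -0.11, and 0 of their 76 tested members passed the threshold.

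By the rule for naming genes, the 5 on either side with lowest unadjusted p, 10 CPM or more and no overlap are given, although edgeR called none of them (adjusted p = 0.999 each). Above 0 were Slfn9, Ifitm1, Ccnd1, Nkx2-3 and Hspd1, with log2 fold changes of 0.54, 0.46, 0.50, 1.22 and 0.39, of which that of Nkx2-3 was 0.65 without Yoda1 2. Ccnd1, the G1 cyclin D1, was at 50.1 and 47.1 CPM in Yoda1 1 and Yoda1 2 and at 32.0 and 37.4 CPM in control 1 and control 2. Outside the gate, Ccnd1 was at 38.8 and 36.0 CPM with Yoda1 and at 23.6 and 19.9 CPM in controls, again without overlap. Below 0 were H2-Ab1, Fosb, Fos, Btg2 and H2-Aa, with log2 fold changes of -1.31, -1.09, -1.14, -0.64 and -2.10. Fos and Fosb are AP-1 subunits of the immediate early response, Btg2 is an antiproliferative gene, and H2-Ab1 and H2-Aa encode chains of MHC class II.

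Several immediate early genes had lower values with Yoda1, though none passed the test. Fos was at 7.39 and 9.20 CPM in Yoda1 1 and Yoda1 2 and at 18.7 and 17.4 CPM in control 1 and control 2. Fosb was at 14.4 and 10.6 CPM with Yoda1 and at 26.0 and 29.3 CPM in controls. Neither gene overlapped between the groups, and their log2 fold changes lay between -1.43 and -0.87 under the alternatives run. Jun, another AP-1 subunit, was at 68.4 and 95.6 CPM with Yoda1 and at 113 and 204 CPM in controls (log2 fold change -0.96, SE 0.245, adjusted p = 0.999, edgeR), and its value was -0.47 without control 2. Of 14 tested members of the list of 16, 12 had a log2 fold change below 0, with a median of -0.52. Below both controls were 6 (42.9%), beside 16.1% of all genes tested. The median was -0.22 without Yoda1 1 and -0.88 without Yoda1 2. The list summed to 335 and 533 CPM with Yoda1 and to 538 and 736 CPM in controls, with Yoda1 2 close to control 1. In the other kept cells Fos was at 17.0 and 29.9 CPM with Yoda1 and at 33.1 and 53.4 CPM in controls, and the test of a departure of the gate from them gave an interaction of -0.13 (SE 0.258, adjusted p = 0.987, edgeR).

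The interferon response list followed a single library. All 20 members had a log2 fold change above 0, with a median of 0.73. Above both controls in both Yoda1 libraries was 1 of 20 (5%), beside 12.3% of all genes tested. The list summed to 1827 and 470 CPM in Yoda1 1 and Yoda1 2, against 861 and 614 CPM in control 1 and control 2, so Yoda1 1 was the highest library and Yoda1 2 the lowest. Isg15, a ubiquitin-like antiviral modifier, was at 208 and 15.1 CPM with Yoda1 and at 41.9 and 24.7 CPM in controls. The list median was 1.29 without Yoda1 2 and -0.56 without Yoda1 1. Outside the gate, Isg15 was at 368 and 41.4 CPM with Yoda1 and at 90.0 and 49.4 CPM in controls, the same order of libraries.

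The stem cell list of the gate also moved with a single library. Of 14 tested members of 16, 11 had a log2 fold change above 0, with a median of 0.33. Above both controls were 3 (21.4%), beside 12.3% of all genes tested. The list summed to 663 and 960 CPM in Yoda1 1 and Yoda1 2 and to 619 and 712 CPM in control 1 and control 2. Its median was -0.10 without Yoda1 2. Hlf was at 35.7 and 104 CPM with Yoda1 and at 41.9 and 41.9 CPM in controls, and its log2 fold change was 0.69 (SE 0.362, adjusted p = 0.999, edgeR) but -0.19 without Yoda1 2.

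Several MHC class II genes rested on few cells in the controls, H2-Ab1 less so. H2-Ab1 was found in 28.2% and 31.25% of gate cells in Yoda1 1 and Yoda1 2. In control 1 and control 2 it was found in 37.5% and 26.6%. The 3 cells with most H2-Ab1 UMIs held 6.01% and 34.7% of them in Yoda1 1 and Yoda1 2. In control 1 and control 2 such cells held 63.3% and 58.0%. Cd74, the invariant chain, was at 5.97 and 44.9 CPM in Yoda1 1 and Yoda1 2. In control 1 and control 2 Cd74 was at 135 and 92.3 CPM. Of the list of 8, 6 of 6 tested members were below both controls, beside 16.1% of all genes tested. In control 1, 761 of 831 Cd74 UMIs were in 3 of 411 cells, and in control 2, 571 of 646 were in 3 of 508 cells. The Pf4 counts of these cells ran from 138 to 960 UMIs. In Yoda1 2, 123 of 161 Cd74 UMIs were in 3 of 224 cells, and Cd79a, a chain of the B cell receptor, had 78 of 81 UMIs in 3 cells. Chosen after the values were seen, an alternative left out the 24 gate cells with 5 or more UMIs of Cd74, Ccl5 or Cd79a. The median of the MHC class II list was then -0.10 in place of -1.64. The log2 fold change was 0.24 for H2-Aa and -0.21 for H2-Ab1. Of these 24 cells 13 were among those with the highest doublet scores of their library. They were 3 of 4 and 3 of 7 in Yoda1 1 and Yoda1 2, and 1 of 6 and 6 of 7 in control 1 and control 2. Of all gate cells, 12.9% and 12.5% with Yoda1 and 7.54% and 8.66% in controls had such scores. Among the 3 cells with most Cd74 in control 1, 0 did. With the highest scores removed the list median was -2.28, and 4 of 6 tested members were below both controls. The part of doublets was not tested.

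A last test asked whether a Yoda1 difference in gate cells departed from that in the other kept cells of the same libraries, and it called 1 of 17385 genes (0.00575%). That gene was Ccl5, a chemokine of T and NK cells, at 16.6 and 6.41 CPM in the gate cells of Yoda1 1 and Yoda1 2 and at 3.25 and 5 CPM in those of control 1 and control 2. In the other kept cells it was at 16.9 and 16.6 CPM with Yoda1 and at 20.3 and 31.4 CPM in controls. The interaction was 2.23 on the log2 scale (SE 0.321, adjusted p = 0.0495, edgeR). In Yoda1 1, 121 of 128 Ccl5 UMIs were in 3 of 496 cells, and with the 24 cells above left out the interaction was 0.46 (adjusted p = 0.999, edgeR).

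**Figure D5:**
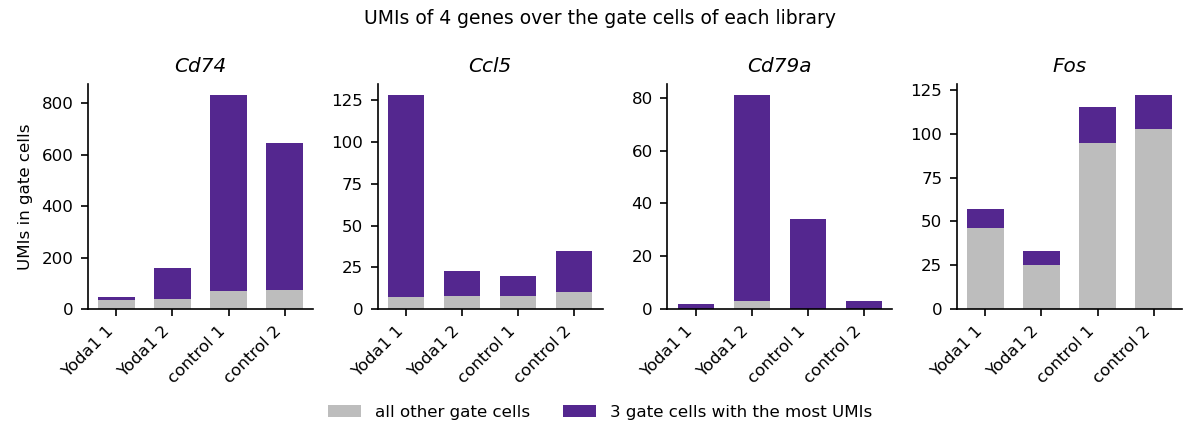
UMIs of Cd74, Ccl5, Cd79a and Fos in the gate cells of each library, with those in the 3 cells holding the most UMIs of that gene in purple and those in all other gate cells in grey (bars start at 0). The top 3 cells hold 91.6% of Cd74 in control 1 and 94.5% of Ccl5 in Yoda1 1, but 19.3% of Fos in Yoda1 1.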

How the data were processed

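The deposited files hold raw UMI counts per gene and barcode, with no normalization; per the file headers they were made with Cell Ranger 7.1.0. The submitters' processing notes list Seurat 4.3.0, GRCm38 and mm10. Labels point to 10x Genomics in 1 field and to a Singleron microwell chip in another, so the capture platform is uncertain, and treatment of intronic reads is not given in the sources used here. Counts were summed per library over gate cells and tested with edgeR 4.0.16 in R 4.3.3 (filterByExpr, TMM, quasi-likelihood, Benjamini-Hochberg over all genes tested, threshold 0.05), tested on simulated data, with DESeq2 1.42.0 and limma-voom 3.58.1 as alternatives. The interaction was tested on sums of gate cells and of other kept cells, with library as a block. Scrublet (scanpy 1.11.5) set thresholds that marked 1, 0, 621 and 3 cells in Yoda1 1, Yoda1 2, control 1 and control 2, so it was judged not to have worked and doublets were kept; an alternative removed the 666, 761, 465 and 489 cells of highest score. Intervals are Clopper-Pearson and cover counting error only. Named genes were the label markers, the 20 of largest ratio to other kept cells (10 CPM added, found in at least 20% of gate cells), the 5 of smallest p on either side with at least 10 CPM and no overlap, list members of highest level or smallest p, and 12 chosen progenitor genes; Clu, Gp6, Ppbp and Tubb1 were added after their values were seen. Other alternatives changed the scaling, the filters and the gate, or left out a library. Some genes are not reported here. Gate, lists and tests were chosen with earlier results of these data known.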

Additional observations from a re-analysis of the deposited data

Results flagged for a closer look

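Ccl5 is listed because its Yoda1 difference in gate cells departed from that in the other kept cells, with an interaction of 2.23 on the log2 scale (edgeR, adjusted p = 0.0495). The value ran from 0.10 to 2.59 over the alternatives. DESeq2 called it and limma-voom did not (adjusted p = 0.975). It was 0.67 with the cells of highest doublet score removed, and 121 of the 128 Ccl5 UMIs of Yoda1 1 were in 3 cells. With 2 libraries a group, no single library could be tested for standing apart from its group.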

How the results depend on the processing

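The difference in gate share was below 0 under every alternative run, from -3.65 to -0.507 points with 1 library left out, and no p could pass the threshold in this design. For Yoda1 over control, the count of 0 called genes became 1 with DESeq2, 67 with no filter on low counts, 3 with Pf4 of at least 5, 3 with Pf4 of at least 16 (chosen after the values were seen) and 5 without the exclusions, and 2 to 111 with 1 library left out (111 without Yoda1 2, 101 without Yoda1 1). Those fits assume that the lone library varies like the other group. For the interaction, the count of 1 became 0 with limma-voom, with the stricter cell filter, with the highest doublet scores removed, with Pf4 of at least 2, without the exclusions and with the 24 cells left out. It became 60 with no filter on low counts, 20 with Pf4 of at least 5 and 17 with Pf4 of at least 16, and 23 to 957 with 1 library left out (957 without Yoda1 1). The causes were not tested.

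Of 450 log2 fold changes of 25 named genes under the alternatives, 14 changed sign. Without the exclusions Pf4 was 0.017, Vwf 0.16, Treml1 0.046, Ifitm1 -0.010 and Ccl5 -0.52. Vwf was 0.0034 with the highest doublet scores removed and 0.011 and 0.013 with Pf4 of at least 5 and at least 16. Ccl5 was -0.31 with Pf4 of at least 2. With the 24 cells left out Ccl5 was -0.11 and H2-Aa 0.24. With 1 library left out Treml1 ran from -0.38 to 0.080, Hlf from -0.19 to 1.29 and Isg15 from -1.16 to 2.69. The cause was not tested.

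The labels number the libraries 1 and 2 in both groups without saying that a number marks a shared day or litter, so they were not treated as pairs. The log2 difference of library 1 minus library 2 correlated between the groups at 0.142 over 12199 genes, which are not independent. With the replicate block 2 genes were called, Jun and H2-Ab1, in place of 0. Fold changes of genes under about 10 CPM rest on few UMIs in Yoda1 2, whose gate held 224 cells.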

Other observations

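The calcium entry list, which holds Piezo1, had 10 tested members of 12, of which 8 had a log2 fold change below 0. Its median was -0.15, and 3 members (30%) were below both controls, beside 16.1% of all genes tested. Without control 1, 5 were below 0 and 5 above, with a median of -0.03. Its member of smallest unadjusted p was Atp2a3, the calcium pump of platelet stores, at 71.6 and 84.2 CPM in Yoda1 1 and Yoda1 2 and at 92.0 and 99.5 CPM in control 1 and control 2. Of 20 S phase genes 6 (30%) were above both controls, beside 12.3% of all genes tested. A log2 fold change above 0 was found for 17, with a median of 0.11. That median was 0.045 with the highest doublet scores removed (11 above 0), 0.03 without control 2 (12 above 0) and 0.04 without Yoda1 2 (13 above 0). Gins2, a subunit of the replicative helicase, was at 53.7 and 54.9 CPM with Yoda1 and at 43.8 and 46.6 CPM in controls. Of 20 G2/M genes 10 were above 0 and 10 below, with a median of -0.02. edgeR called none of these genes (adjusted p = 0.999 for Atp2a3 and Gins2).

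The granulocyte-monocyte list of the gate summed to 1770 and 462 CPM in Yoda1 1 and Yoda1 2 and to 2076 and 997 CPM in control 1 and control 2. In the other kept cells the 6 granulocyte-monocyte markers summed to 8600 and 2580 CPM with Yoda1 and to 10630 and 10230 CPM in controls, with Yoda1 2 the lowest library in both. The part of free RNA in the gate's values was not tested.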
